A study of Homo sapiens with 26 samples.

Results

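The loci described here hold 10 genes typical of the adult or foetal liver, measured in cells of another tissue: APOB, TF, ALB, AFP, FGB, CYP3A4, APOA1, SERPINA1, HP and TTR. They lie at 9 loci, since ALB and AFP are neighbours. The loci were chosen by position, as the 100 kb bins that overlap each gene on hg19, which gave 10 bins of the 30376 in the data. All 10 were among the 26331 used bins, those with a value that was not 0 in every cell. Each locus was compared, cell by cell, with its flanks, the 20 bins that lie within 1 Mb on either side.

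The 26 samples are single cells of KBM7, a human leukaemia line with a nearly haploid genome, all from clone 5-8 and all labelled haploid (1N) and DamOnly, although the title of the series names LaminB1. They form 1 group with no untreated or liver sample, and nothing in the labels says that the cells came from separate cultures. Every cell carries Dam, a bacterial adenine methyltransferase, without a fusion partner, stabilised by 0.5 nM Shield1 for 15 h before sorting. Sorted cells were among the smallest 2% and carried both Fucci cell cycle reporters. Because all cells belong to 1 clone they were treated as 1 sample: no p-value was computed, each SD is a spread between cells, and each interval covers counting error only.

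The liver secretes most proteins of the blood plasma, among them albumin, the clotting protein fibrinogen and the apolipoproteins that carry fat. Many of their genes are switched on by hepatocyte factors such as HNF1 and HNF4 and are known to be silent in most other tissues. Dam methylates the adenine of the sequence GATC wherever it can reach the DNA, so that unfused Dam gives a map of open chromatin. RNA was not measured in these samples, so whether any of the 10 genes is silent in KBM7 was not checked here.

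The sequences before 5 of the gene starts are shown because 3 of them (ALB, AFP and CYP3A4) belong to the 2 loci that were at least 1.5-fold below their flanks and the other 2 (FGB and SERPINA1) do not. Each is the 250 bases before a start, 5′ to 3′ along the gene, from RefSeq on GRCh38.p14. Capitals mark GATC, the target of Dam, and GTTAAT or its reverse complement ATTAAC, one arm of the palindromic site of HNF1.
ALB, chr4:73404037-73404286 (+ strand): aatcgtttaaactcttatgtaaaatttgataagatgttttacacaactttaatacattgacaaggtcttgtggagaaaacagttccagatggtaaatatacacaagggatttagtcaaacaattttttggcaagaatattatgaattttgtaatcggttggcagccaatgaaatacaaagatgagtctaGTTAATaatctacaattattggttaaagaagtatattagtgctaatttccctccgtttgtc
AFP, chr4:73435971-73436220 (+ strand): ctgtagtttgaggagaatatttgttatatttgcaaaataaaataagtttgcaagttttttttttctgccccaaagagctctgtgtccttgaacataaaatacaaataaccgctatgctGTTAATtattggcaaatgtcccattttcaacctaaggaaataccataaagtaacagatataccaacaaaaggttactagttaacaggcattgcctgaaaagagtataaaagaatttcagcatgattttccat
CYP3A4, chr7:99784185-99784434 (- strand): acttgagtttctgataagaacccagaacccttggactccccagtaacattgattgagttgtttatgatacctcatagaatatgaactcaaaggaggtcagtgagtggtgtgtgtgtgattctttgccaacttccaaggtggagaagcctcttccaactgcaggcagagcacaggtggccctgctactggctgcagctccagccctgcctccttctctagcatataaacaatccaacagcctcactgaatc
FGB, chr4:154562761-154563010 (+ strand): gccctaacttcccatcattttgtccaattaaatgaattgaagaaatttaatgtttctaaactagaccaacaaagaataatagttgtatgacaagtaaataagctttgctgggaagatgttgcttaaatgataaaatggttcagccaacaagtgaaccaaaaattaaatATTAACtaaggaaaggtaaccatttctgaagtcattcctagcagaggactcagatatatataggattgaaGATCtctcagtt
SERPINA1, chr14:94388603-94388852 (- strand): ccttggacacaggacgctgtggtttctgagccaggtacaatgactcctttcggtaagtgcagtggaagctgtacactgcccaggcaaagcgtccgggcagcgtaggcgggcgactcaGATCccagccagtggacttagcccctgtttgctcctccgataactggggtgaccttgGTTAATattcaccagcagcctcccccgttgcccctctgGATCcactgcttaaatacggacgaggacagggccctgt
RefSeq entries were found for 6 of the 10 genes, with 9 starts in all. GATC occurred in 3 of these 9 windows and in 35.8% of the 35116 windows of the same length before all gene starts. The window of SERPINA1 shown holds 2 of them, that of FGB shown holds 1, and those of ALB, AFP and CYP3A4 hold none. SERPINA1 and FGB each have another start, not shown, whose window holds no GATC. The split among the windows shown thus depends on which starts were shown. GTTAAT, on either strand, occurred in 5 of the 9 windows, at ALB, AFP, SERPINA1 and both starts of FGB, and in 6.23% of all windows. The windows of both FGB starts overlap for most of their length and hold the same match, so that it is counted once for each. These 250 bases are a small part of a 100 kb bin, and the signal of a bin does not say where in the bin Dam acted.

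Depth set what could be seen. The deposited ratios of observed over expected signal were whole multiples of a step in every bin, which gave back whole counts, from 20182 in cell 21 to 178941 in cell 1, with a median of 42448.5. A 100 kb bin therefore held between 0.766 and 6.80 counts per cell on average. The 9 loci together held between 5 counts in cell 22 and 81 in cell 1. For this reason each locus is given both per cell, as its ratio divided by the mean ratio of the cell, and pooled, as the counts of all cells over their expectation, with 1 for all used bins. In cell 22, as in cells 10 and 13, 6 of the 9 loci had no count. Cell 22 stood apart from the others in its flanks. Those of TF were at 5.36 and those of HP at 0.0946 times the mean of the cell, so values that rest on cell 22 are also given without it.

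As a group the liver loci were close to the average of the genome and to their own surroundings. Averaged over the 9 loci, the relative ratio was 0.947 ± 0.221 at the loci and 1.00 ± 0.0922 in the flanks (SD, n = 26 cells). The quotient of both was 0.946 ± 0.220 and lay below 1 in 15 of 26 cells, with a lowest value of 0.582 in cell 22, a median of 0.993 and a highest of 1.52 in cell 11. Single cells thus lay on both sides of 1. Leaving out cell 22 gave a mean quotient of 0.961, and leaving out the 6 shallowest cells gave 1.00.

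Single loci differed widely around this mean. In order of pooled level, APOA1 came first at 2.00 (95% interval 1.70 to 2.34), before HP at 1.45 (1.16 to 1.79), FGB at 1.18 (0.929 to 1.48), TF at 0.963 (0.733 to 1.24), SERPINA1 at 0.946 (0.737 to 1.19), CYP3A4 at 0.866 (0.599 to 1.21), TTR at 0.834 (0.638 to 1.07), APOB at 0.577 (0.417 to 0.777) and ALB-AFP at 0.311 (0.211 to 0.442). The intervals of neighbours in this order overlapped in every case. Such overlap does not decide whether 2 levels differ, and the order of neighbours was not tested. The level of APOA1 was 6.43 times that of ALB-AFP, and APOA1 was the higher of the pair in 25 of 26 cells, with both at 0 in the other cell.

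Each count was set beside the share of all bins that met the same limit. A level at least 1.5-fold below the mean was seen at 2 of 9 loci (APOB and ALB-AFP), and 39.4% of all bins were as low. A level at least 1.5-fold above it was seen at 1 locus, APOA1, and 19.7% of all bins were as high. At 2-fold, ALB-AFP was as low, as were 23.7% of bins, and APOA1 as high, as were 9.37% of bins. A level below the mean was seen at 6 of 9 loci and at 61.4% of bins. The median of the 9 levels was 0.946, against 0.809 over all bins. Relative to flanks, 2 of 9 loci were lower by at least 1.5-fold, ALB-AFP and CYP3A4, where 23.4% of bins are. APOA1 was higher by at least 1.5-fold, where 12.4% of bins are. At 2-fold the same 2 loci were lower, as were 8.51% of bins, and APOA1 was higher, as were 3.62% of bins. A ratio below 1 was seen at 4 of 9 loci and at 59.2% of bins. The median ratio over flanks was 1.08 for the 9 loci and 0.908 for all bins. FGB, APOA1 and TTR were above at least 16 of their 20 flank bins, as were 20.7% of bins.

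**Figure D1:**
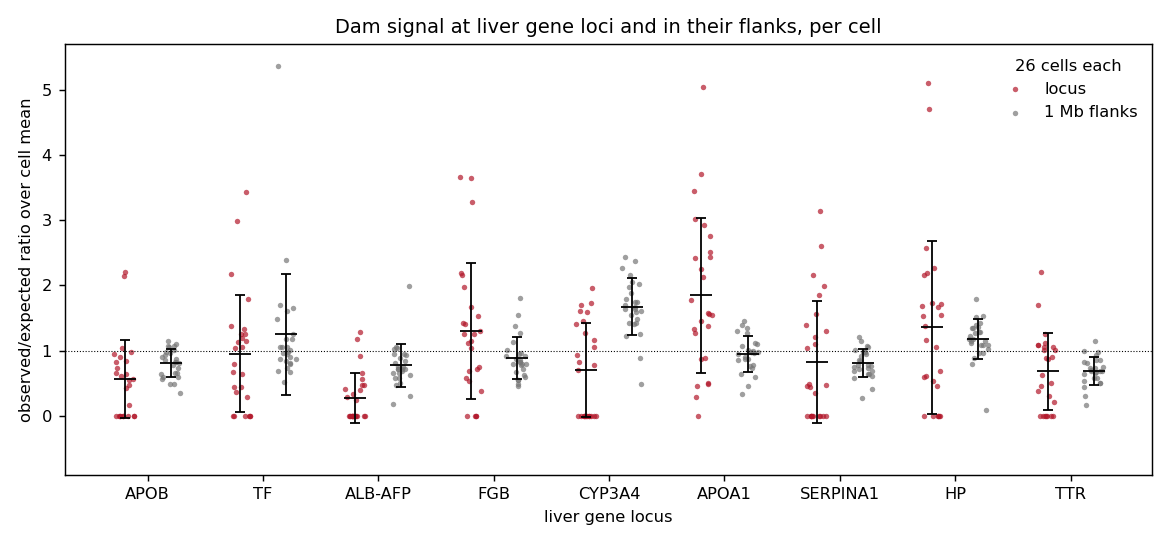
Ratio of observed over expected signal divided by the mean of the cell (y axis), at each locus (red, left) and in its 1 Mb flanks (grey, right), with 1 point per cell and bars for the mean ± SD over 26 cells. Many cells sit at 0 at ALB-AFP and CYP3A4, while all but 1 lie above 0 at APOA1.

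The albumin locus was the least marked of the 9. ALB encodes serum albumin, the main protein of plasma, and AFP its foetal counterpart alpha-fetoprotein. Both bins, on chromosome 4 at 74200001 to 74400000 (hg19), together held 31 counts in all cells. The relative ratio had a lowest value of 0, a median of 0 and a highest of 1.30 in cell 16, with a mean of 0.279 ± 0.384 (SD, n = 26) against 0.775 ± 0.329 in the flanks. No count was found in 14 cells, and 2 cells reached a deposited ratio of 1 or more.

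Pooled over cells, ALB-AFP stood at 0.311 against 0.790 in its flanks, a ratio of 0.394 (0.266 to 0.563). It lay below its flanks in 24 of 26 cells. Its 2 bins were alike: the bin from 74200001, which holds ALB, was at 0.3003 (16 counts) and the bin from 74300001, which holds AFP, at 0.323 (15 counts). Only 6.49% of all bins had a lower level than the locus, and 13.4% of those of chromosome 4, a chromosome with a level of 0.735 as a whole. Among the 20 flank bins 1 was lower, at 73600001 to 73700000 (0.189). The highest, 0.6 Mb after the locus at 74900001 to 75000000, reached 1.83 and was positive, at a ratio of 1 or more, in 19 cells.

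CYP3A4, the main drug-oxidising cytochrome P450 of the adult liver, showed another kind of low locus. Its bin, on chromosome 7 at 99300001 to 99400000, had a pooled level of 0.866, which is above 53.7% of all bins, but its flanks were at 1.74, the highest flanks of the 9 loci. Flanks at least 1.5-fold above the mean of all bins were found around 15.0% of bins. Per cell the lowest value was 0, the median 0.743 and the highest 1.97 in cell 19, with a mean of 0.70 ± 0.721 (SD, n = 26) at the locus and 1.67 ± 0.436 in the flanks. The locus lay below the flanks in 24 of 26 cells, and 12 cells had no count. Of the 9 loci, ALB-AFP and CYP3A4 were below their flanks in at least 21 cells, which 16.6% of all bins are, and none was above them in as many, which 2.80% of bins are.

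The ratio of CYP3A4 over its flanks was 0.498 (0.343 to 0.698). All 20 flank bins were higher than the locus, with the lowest at 0.975 and the highest, at 98900001 to 99000000, at 2.62. A bin below all of its flank bins was found at 4.16% of positions in the genome, a comparison chosen after the data were seen. Against the rest of chromosome 7 in place of the flanks the ratio was 0.951, with 15 cells below. In the RefSeq gene order CYP3A4 lies between CYP3A7 and CYP3A43, members of the same family, and how reads that match several of them were counted was not stated. The bin had an expectation of 0.684 times that of the median bin and 34 counts in all.

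The apolipoprotein loci were far apart. APOA1 encodes the main protein of HDL particles, and in the RefSeq order it adjoins APOC3, APOA4 and APOA5 on its lower side and SIK3, PAFAH1B2 and SIDT2 on its upper side. Its bin, on chromosome 11 at 116700001 to 116800000, held 159 counts, the most of the 9 loci. The relative ratio ran from 0 in cell 23 over a median of 1.57 to 5.04 in cell 16. Its mean was 1.85 ± 1.19 (SD, n = 26) at the locus and 0.953 ± 0.274 in the flanks. The locus was above its flanks in 19 cells, 2 short of the 21 required for a side.

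Pooled, APOA1 was at 2.00 against 0.942 in its flanks, a ratio of 2.12 (1.79 to 2.51), and 90.6% of all bins were lower. It was not an isolated peak. The 5 bins from 116600001 to 117100000 had levels between 1.42 and 2.51 and were positive in 14 to 21 cells. The 9 bins before them were at 0.339 to 0.767 and positive in 3 to 8 cells. The highest bin of this stretch was the one after the locus, at 116800001 to 116900000 (2.51).

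APOB encodes the protein that wraps VLDL and LDL particles. Its bin on chromosome 2, at 21200001 to 21300000, had a lowest relative ratio of 0, a median of 0.561 and a highest of 2.20 in cell 12, with a mean of 0.568 ± 0.602 (SD, n = 26) and 0.810 ± 0.216 in the flanks. It was below its flanks in 18 cells and reached a ratio of 1 in 3. The pooled ratio over flanks, 0.679 (0.488 to 0.920), fell just short of the 1.5-fold limit and was 0.612 without cell 12, which is past the limit.

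The surroundings of APOB were uneven. The 10 bins before it averaged 1.24, with a highest of 1.70 at 20500001 to 20600000. The 10 bins after it averaged 0.491, with a lowest of 0.325 at 22200001 to 22300000. The level of APOB, 0.577, lay close to that of the bins after it. Set beside each other, APOA1 was higher than APOB in 21 of 26 cells, and the pooled levels differed 3.47-fold.

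**Figure D2:**
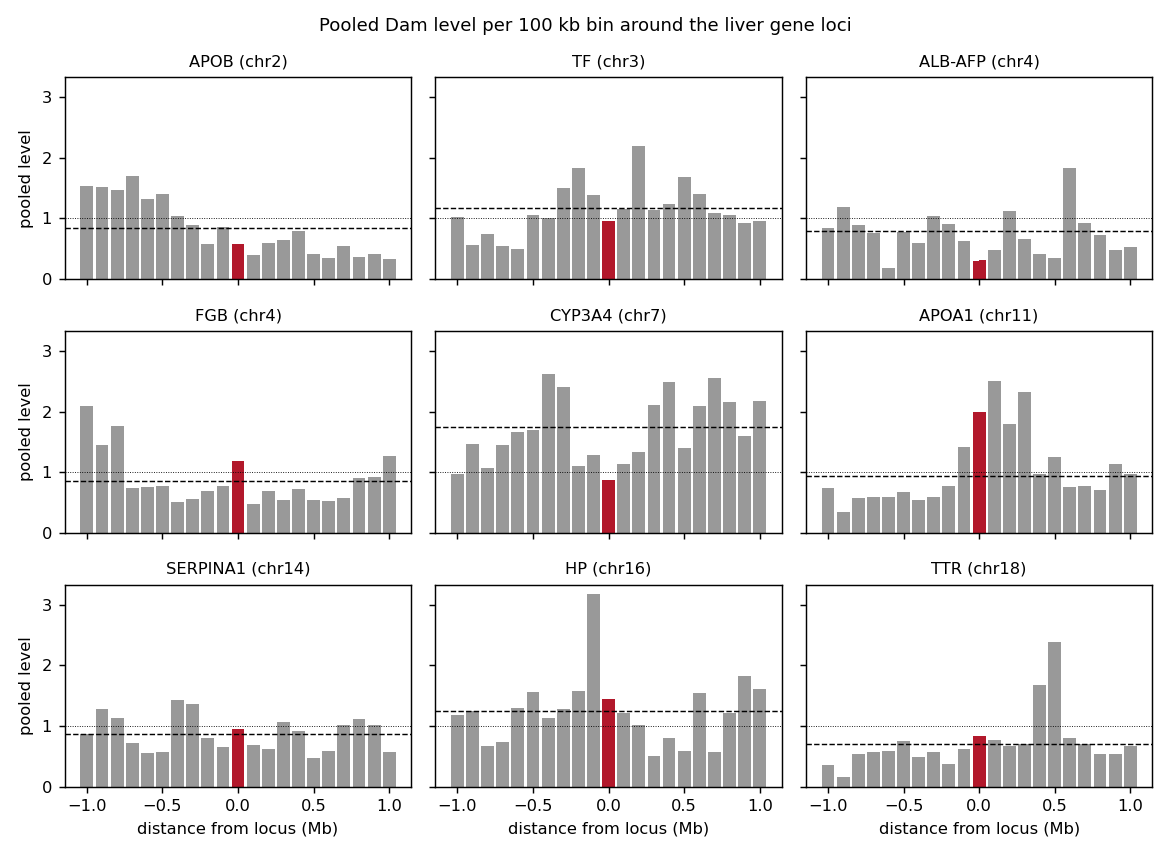
Pooled level of each 100 kb bin (y axis, all used bins = 1) by distance from the locus in Mb (x axis), with the locus in red, flank bins in grey, the flank level dashed and 1 dotted. ALB-AFP (2 narrow bars) and CYP3A4 sit in a trough, and APOA1 is part of a raised stretch. FGB is higher than the bins within 0.7 Mb of it but lower than some further out.

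The acute phase genes FGB, HP and SERPINA1 had ratios over flanks between 1.08 and 1.37. FGB encodes the beta chain of fibrinogen. In the RefSeq order PLRG1 lies directly before FGB, and FGA and FGG, which encode the other chains, follow it. The bin of FGB is on chromosome 4 at 155400001 to 155500000 and held 75 counts. Which of these neighbours share that bin was not determined, so its level cannot be assigned to FGB alone. The relative ratio ran from 0 over a median of 1.21 to 3.66 in cell 11, with a mean of 1.30 ± 1.04 (SD, n = 26) against 0.891 ± 0.320 in the flanks. It was above its flanks in 17 cells and reached a ratio of 1 in 16.

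The pooled ratio of FGB over its flanks was 1.37 (1.07 to 1.73), under the 1.5-fold limit. The bin stood alone: the 14 other bins within 0.7 Mb were all lower, at 0.4705 to 0.780, and positive in 3 to 9 cells. With the nearest 0.5 Mb as flanks the ratio was 1.89, and with the locus widened by 1 bin on either side it was 0.774. On chromosome 4, FGB was higher than ALB-AFP in 19 cells and lower in 5, and its level was 3.80 times as high. Of the bins of chromosome 4, 86.1% were lower than FGB.

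HP encodes haptoglobin, which binds free haemoglobin. Its bin, on chromosome 16 at 72000001 to 72100000, had a lowest relative ratio of 0, a median of 1.27 and a highest of 5.11 in cell 13. Its mean was 1.36 ± 1.32 (SD, n = 26), against 1.18 ± 0.309 in the flanks, with 14 cells above the flanks and 12 below. The pooled levels of 1.45 and 1.24 gave a ratio of 1.17 (0.928 to 1.45), which does not separate the locus from its flanks.

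The bin just before HP, at 71900001 to 72000000, had a level of 3.17, more than any other flank bin of the 9 loci, and was positive in 24 cells. In the RefSeq order the genes before HP are DHODH, PKD1L3 and IST1, and those after it are HPR, TXNL4B and DHX38. Which of them lies in that bin was not determined. HPR is a close copy of HP, and the sources used here do not say how reads that match both were counted.

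SERPINA1 encodes alpha-1 antitrypsin, an inhibitor of neutrophil elastase, and lies in a cluster with SERPINA6, SERPINA10 and SERPINA11. It was covered by the bin on chromosome 14 at 94800001 to 94900000, which had a lowest relative ratio of 0, a median of 0.463 and a highest of 3.14 in cell 11. The mean was 0.829 ± 0.930 (SD, n = 26) against 0.812 ± 0.221 in the flanks, and the pooled ratio was 1.08 (0.839 to 1.38). The locus had no count in 10 cells.

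The carrier proteins were also close to their surroundings with flanks of 1 Mb. TTR encodes transthyretin, which carries thyroxine and retinol-binding protein. The bin, on chromosome 18 at 29100001 to 29200000, ran from 0 over a median of 0.750 to 2.21 in cell 15, with a mean of 0.683 ± 0.587 (SD, n = 26) against 0.693 ± 0.214 in the flanks. The pooled ratio was 1.19 (0.898 to 1.54), with 12 cells above the flanks and 14 below. The 10 bins before TTR averaged 0.510 and the 10 after it 0.914. The highest of these, 0.5 Mb away at 29600001 to 29700000, was at 2.38 and positive in 20 cells. With flanks of 2 Mb the ratio was 1.57.

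TF encodes transferrin, which carries iron. The bin, on chromosome 3 at 133400001 to 133500000, ran from 0 over a median of 0.919 to 3.43 in cell 22. The mean was 0.957 ± 0.896 (SD, n = 26) against 1.25 ± 0.929 in the flanks. Without cell 22 these were 0.858 ± 0.755 and 1.09 ± 0.412 (SD, n = 25). The pooled ratio over flanks was 0.824 (0.624 to 1.07), with 17 cells below. With the nearest 0.5 Mb as flanks the ratio was 0.671, just short of the 1.5-fold limit, with 20 cells below. The bin 0.2 Mb after TF, at 133600001 to 133700000, was at 2.20 and positive in 21 cells.

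Cells differed in which liver loci carried a count. Per cell, 3 to 9 of the 9 loci had a count, with a median of 7, and 2 to 6 reached a ratio of 1, with a median of 4. No locus was positive in at least 21 cells, which 5.61% of all bins were. APOB and ALB-AFP were positive in at most 5 cells, as 33.5% of bins were. APOA1 was positive in 19 cells, FGB in 16, HP in 15, TF in 13, CYP3A4 and SERPINA1 in 10 each and TTR in 8.

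The cells without a count at a locus had a lower median total than those with one at each of the 9 loci, but by little at FGB. At ALB-AFP the 14 cells without a count had a median total of 38350 counts, against 72440 in the 12 cells with one. At SERPINA1 the medians were 30840 in 10 cells without and 62200 in 16 cells with a count. At FGB they were 41270 in 4 cells without and 42450 in 22 cells with a count, and cell 19, with a total of 113588, had none. Cell 1, the deepest, had counts at all 9 loci, from 3 at FGB to 16 at HP, and 5 at ALB-AFP. Its relative ratio was 0.408 at ALB-AFP, against 0.719 in the flanks.

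The mean of the loci over their flanks moved with depth too. In the 6 cells of lowest total (20182 to 29584 counts) it ran from 0.582 to 1.07 with a median of 0.730. In the 14 cells between it ran from 0.627 to 1.52 with a median of 0.994. In the 6 deepest cells (81331 to 178941 counts) it ran from 0.898 to 1.24 with a median of 1.08. The part of depth in these values was not tested.

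The spread of counts between cells was also measured. The chi-square of the counts against cell depth, divided by its degrees of freedom, lies near 1 when cells differ by counting noise alone. It ran from 0.933 at CYP3A4 over 1.10 at TTR and 1.13 at TF to 1.91 at FGB and 2.12 at SERPINA1. Over the 20718 bins with at least 26 counts the median was 1.65, with 1.31 and 2.09 at the quartiles and 0.948 at the 5th percentile. CYP3A4 lay below that percentile, TTR and TF below the lower quartile and SERPINA1 above the upper one. These bins were not matched to the loci for count, and CYP3A4 held only 34 counts. Its position therefore does not show that cells were more alike there than at other bins.

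**Figure D3:**
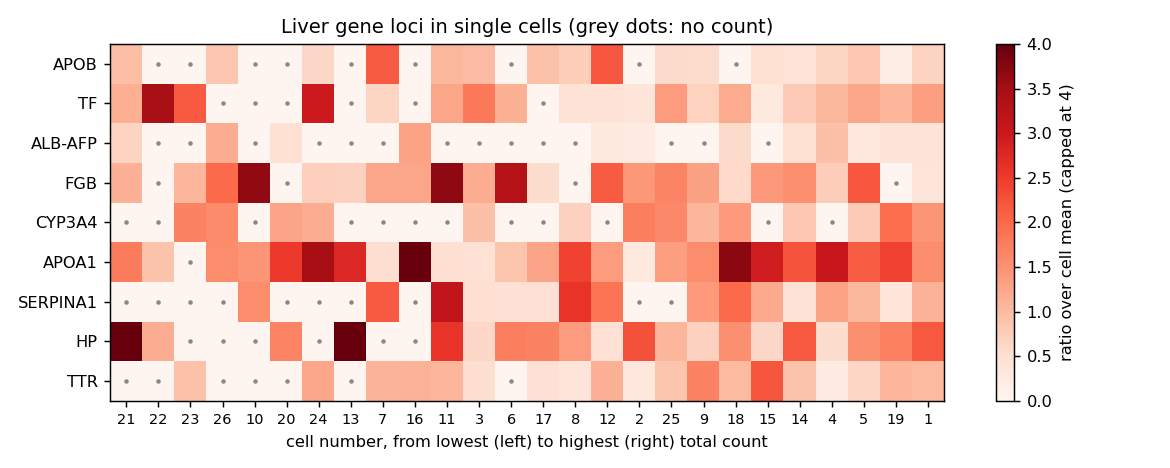
Relative ratio at each locus (rows) in each of the 26 cells (columns, in order of total count from left to right), with darker red for higher values, capped at 4, and grey dots where a cell had no count. Empty loci are most frequent in the shallow cells on the left, and the APOA1 row is filled in all cells but cell 23.

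A further 26 liver genes were measured in the same way. Their hg19 positions came from general knowledge, and the chromosome of all 73 genes in the lists used here equals that in the RefSeq table. The median level of the 26 genes was 1.03 and the median ratio over flanks 0.874. A ratio below 1 was seen at 18 of 26 genes, beside 59.2% of all bins. Of the 26 genes, 5 were lower than their flanks by at least 1.5-fold, beside 23.4% of all bins, and 3 were higher, beside 12.4%. Both counts at 1.5-fold are near these shares, and the genes named next are given as values only. The lowest was GC, the vitamin D binding protein gene and a member of the albumin family on chromosome 4, at 0.252 against 0.782 in its flanks, a ratio of 0.322 (0.166 to 0.566, 12 counts). PLG, the plasminogen gene, was at 0.458 against 1.02 (ratio 0.451), and ADH1B, an alcohol dehydrogenase gene, at 0.391 against 0.844 (ratio 0.463).

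At the other end, SERPINC1, the antithrombin gene, was at 2.15 against 0.989 (ratio 2.17, 1.78 to 2.64), PROC, the protein C gene, at 2.42 against 1.28 (ratio 1.90) and CYP2E1, which encodes an ethanol-oxidising P450, at 1.35 against 0.882 (ratio 1.53). The 3 low genes GC, ADH1B and TDO2 are all on chromosome 4, as are ALB, AFP and FGB. TDO2, the tryptophan dioxygenase gene, was at 0.651 against 1.02 (ratio 0.637).

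Genes of other tissues were set beside the liver loci, and their counts are read against the same 23.4% of all bins lower and 12.4% higher than flanks by 1.5-fold. At the 11 muscle gene loci the median level was 0.927 and the median ratio over flanks 0.688, with 4 lower than flanks and none higher by 1.5-fold. The 14 genes of blood progenitors and myeloid cells, the lineage of KBM7, had a median level of 2.07 and a median ratio of 1.52. Of these, 7 were higher than their flanks by 1.5-fold and none was lower. MYB, a progenitor transcription factor, was highest at 4.26 against 1.25 in its flanks. The 12 housekeeping genes had a median level of 2.1 and a median ratio of 1.63, with 8 higher than flanks and none lower. ACTB, the beta-actin gene, reached 3.43 against 1.95.

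Of the 9 liver loci, APOA1 at 2.00 and HP at 1.45 lay within the range of the housekeeping genes, 1.43 to 3.43, and the other 7 lay below it. A level of at least 1.5 was found at 1 of 9 liver loci, 5 of 26 further liver genes and 2 of 11 muscle genes, against 11 of 14 blood genes, 10 of 12 housekeeping genes and 19.7% of all bins. The liver and muscle counts are near that share. With 1 sample these counts carry no test. GATC density and base composition of the bins were not analysed here, and their part in these values was not tested.

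**Figure D4:**
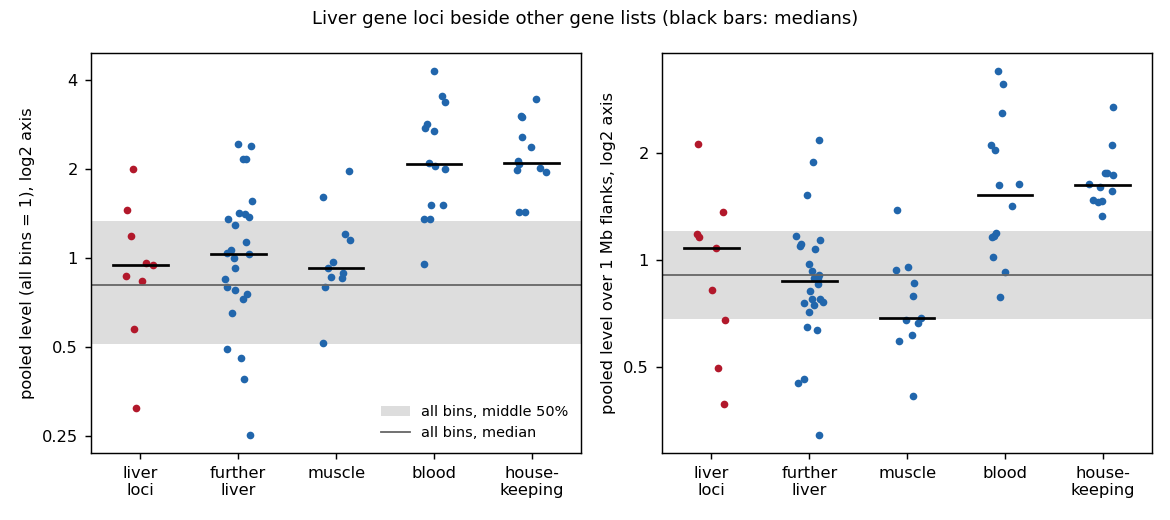
Pooled level (left, all used bins = 1) and pooled level over 1 Mb flanks (right), both on log2 axes, with 1 point per locus or gene, black bars for medians, the grey line for the median of all bins and the grey band for the middle 50% of bins. The medians over flanks are 1.08 for the 9 liver loci, 0.874 for further liver genes and 0.688 for muscle genes, against 0.908 for all bins, and those of blood (1.52) and housekeeping genes (1.63) lie above the band.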

How the data were processed

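The data are 1 table of DamID values for 26 single KBM7 cells, matched to samples by number. The authors deposited, for each bin of 100 kb and each cell, a linear ratio, taken here to be observed over expected after the table's name. The submitters' processing notes name cutadapt, Bowtie2 2.1.0 and hg19. How the authors counted and masked reads and built the expectation: not given in the sources used here. PCR used 21 extension steps, per the labels' protocols, and whether copies were told apart is not given either, so intervals cover counting error only.

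Of 30376 bins, 3792 had no value and 253 were 0 in all cells. Whole counts and a relative expectation per bin were recovered from the ratios for all 26331 used bins (largest distance from a whole number 2.42e-13, tolerance 1e-06). A pooled level is the summed count over the summed expectation, divided by the same over all used bins. Levels have exact 95% Poisson intervals and ratios over flanks exact conditional binomial ones. A locus was called lower or higher at 1.5-fold, and put on a side at 21 of 26 cells. Backgrounds were computed for every bin with at least 10 used flank bins (26235). The hg19 bounds of the loci were those of the rule that defines them.

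Counts were simulated at the real depths and expectations, as Poisson draws with the same level in all bins but the changed ones. Whole counts were recovered for 100% of 26293 bins. Calls were made at 99.0% of 100 bins lowered 2.5-fold and 100% of 100 bins raised 2.5-fold. Of 25999 unchanged bins, 0.858% were called lower and 0.238% higher. Real bins differ in level and spread more between cells (median chi-square over degrees of freedom 1.65). These shares are therefore not rates of false calls for the real data. The members, lists and tests were chosen with earlier results of these data known. All liver loci are named, and from the other lists at most the 4 lowest and 4 highest further liver genes past 1.5-fold and the highest and lowest of other lists. Flank width, the rest of the chromosome as reference, bin filters, capping at the 99th percentile, log2 with 0.1 added, cell subsets, the value that defines positive, thinning to 20000 counts and a fold of 2 were tried. Scripts used scipy 1.17.1, numpy 2.4.6 and pandas 2.3.3 under Python 3.11.15, and figures matplotlib 3.10.9.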

Additional observations from a re-analysis of the deposited data

How the results depend on the processing

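Counts per bin are the main limit: a locus held 31 to 159 counts over all cells, and the intervals of TF, SERPINA1, HP and TTR over flanks included 1. The number of loci lower than flanks by 1.5-fold was 2 under each of 11 other settings, but against the rest of the chromosome these were APOB (0.616) and ALB-AFP (0.423) and no longer CYP3A4 (0.951). Leaving out each cell in turn, chosen after seeing the data, gave 2 to 3 loci lower and 1 locus higher; the number lower was 3, with APOB added, without any one of cells 3, 7, 8, 11, 12 or 25. The number higher was 2 in place of 1 with flanks of 0.5 Mb, flanks of 2 Mb, the rest of the chromosome and the locus widened by 1 bin on either side. The number of loci below flanks in at least 80% of cells was 1 in place of 2 against the rest of the chromosome and with log2 values with 0.1 added. With these log2 values APOA1 was below its flanks in 1 cell, in place of 7. Loci above flanks, and the share of all bins, were not counted on that scale. The median number of positive cells per locus was 10, and became 3 when a ratio of 2 was required and 14 when 0.5 sufficed, as the definition implies. The causes of the other changes were not tested.

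Pooled ratios over flanks ran from 0.360 to 0.555 for ALB-AFP, from 1.64 to 2.18 for APOA1 and from 0.418 to 0.951 for CYP3A4 over 10 alternatives each, on the same side of 1. APOB (0.617 to 0.764) and HP (1.13 to 1.57) also stayed on their side, while TF (0.671 to 1.06), FGB (0.774 to 1.89), SERPINA1 (0.768 to 1.13) and TTR (0.956 to 1.57) lay on both sides of 1. The mean over cells of the loci over their flanks stayed between 0.908 and 1.04 over 8 alternatives. At 2-fold, 3 further liver genes were lower and 1 higher, 2 housekeeping genes higher, 5 blood genes higher and 1 muscle gene lower than flanks, beside 8.51% of all bins lower and 3.62% higher. With cells weighted equally, chosen after the data were seen, the median levels were 0.830 for the liver loci, 2.07 for blood and 2.01 for housekeeping genes. No paired analysis was possible because the cells form a single group, so none pairs with a sample of another group; locus and flanks were compared within each cell throughout.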

Other observations

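Over the 36 pairs of loci the Spearman correlation of the relative ratios across 26 cells had a median of -0.0414 and was above 0 for 16 pairs. The highest pair was ALB-AFP with APOA1 at 0.494 and the lowest CYP3A4 with SERPINA1 at -0.328. All loci of a cell share its library and depth, the counts are sparse, and these values are a description with no test.

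Bins with high levels lay near several liver loci without holding them: the bin before HP at 3.17, the bin 0.5 Mb after TTR at 2.38, the bin after APOA1 at 2.51 and the bin 0.6 Mb after ALB-AFP at 1.83. Averaged by distance with equal weight for each bin, the level was 0.944 over the 10 locus bins, with a median of 0.906. ALB-AFP, the lowest locus, counts with 2 bins in these values. With 1 value per locus the median level of the 9 loci was 0.946. At 0.1 Mb before the loci the mean was 1.20 and the median 0.864, and the bin before HP was the highest. At 0.1 Mb after them the mean was 0.983 and the median 0.776.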
